A study of Homo sapiens with 4 samples.

Results

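Integrins, cadherins and protocadherins are the cell surface receptors by which a cell holds on to its matrix and to its neighbours, and their RNA was compared between TPC1 cells with and without added INAVA. All integrin alpha and beta subunit genes, all genes named CDH and a number, and all genes named PCDH were taken by their symbols, leaving out antisense entries and genes that only carry an integrin name, such as the ITGB1BP genes. This gave 30 of the 13165 genes of the table, made up of 12 integrins, 7 cadherins and 11 protocadherins. In the GENCODE release 29 annotation 121 genes meet the same naming rule, and the other 91 were not analysed here. The 30 genes are 12 of 26 annotated integrins, 7 of 23 cadherins and 11 of 72 protocadherins. CDH1 (E-cadherin), CDH3 (P-cadherin), CDH11, ITGB4, ITGB6 and ITGA4 are among the genes not analysed here.

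TPC1 is a widely used line of human papillary thyroid cancer cells. TPC1-Vector cells carried an empty retroviral vector, and TPC1-INAVA cells carried the same vector with the INAVA cDNA, which the labels give under its older symbol C1orf106. Both were kept in DMEM with serum and selected with puromycin, and each group is 1 stable line as far as the labels tell, so a difference between the lines and one due to INAVA cannot be told apart. RNA of 2 libraries per group was sequenced, and the table holds 1 FPKM value per gene and group (fragments per kilobase of transcript, divided by the size of the library). Its makers had merged the libraries of each group, so no SD and no replicate check can be given, the authors' own comparison was not used and no test was run, and the depth behind each value is unknown. Where a difference is given on the log2 scale, it is that of log2(FPKM + 0.5), TPC1-INAVA minus TPC1-Vector, which understates the difference of low genes. A gene was called when this difference reached 1.5-fold (0.58 on the log2 scale) and the mean of the groups was 0.5 FPKM or more.

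INAVA itself, at chr1:200891499-200915736 on hg38, was at 7.96 FPKM in TPC1-Vector against 123 FPKM in TPC1-INAVA. The thyroid transcription factor gene PAX8 was at 60.1 and 55.7 FPKM and FOXE1 at 5.26 and 5.89 FPKM, whereas the thyroid markers TG, TSHR, SLC5A5 and NKX2-1 were not analysed here. Of 5 epithelial markers 3 had a value, among them the keratin genes KRT8, at 23.4 and 10.5 FPKM, and KRT18, at 140.3 and 212 FPKM. Of the markers of other cells, 0 of 4 endothelial, 2 of 6 fibroblast and 3 of 5 leukocyte genes had a value. The summed level of the fibroblast genes was 1.32 FPKM in TPC1-Vector against 0.795 FPKM in TPC1-INAVA, and that of the leukocyte genes 6.31 and 10.3 FPKM, most of it from CD68. In a bulk sample, fewer cells that express a gene and less RNA of that gene per cell cannot be told apart.

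An integrin is a heterodimer of an alpha and a beta subunit. The pair decides which matrix protein is bound, and the short tail of the beta subunit is tied to actin through talin, kindlin and vinculin. Classical cadherins bind the same cadherin on the next cell and hold the actin cytoskeleton through catenins. Clustered protocadherins lie in tandem arrays, in which each variable exon has its own promoter and, in the alpha and gamma clusters, is spliced to constant exons that all genes of the cluster share. Most of their promoters carry a conserved element with the core CGCT, and CTCF and cohesin are known to act on these arrays.

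The 7 clustered protocadherins of the table lie in 3 clusters on chromosome 5 and have a promoter each, so the 120 bases before each start are shown, since the genes of an array are started one by one from these promoters. They were read from RefSeq (GRCh38.p14, forward strand), and capitals mark the word GGTGGCGCT, GCCGCTGT or TGTCGCT, or CGCT where none of these was found. The windows are chr5:140806948-140807067 for PCDHA4, chr5:140966356-140966475 for PCDHAC2, chr5:141094495-141094614 for PCDHB2, chr5:141208599-141208718 for PCDHB12, chr5:141407901-141408020 for PCDHGB6, chr5:141412867-141412986 for PCDHGA10 and chr5:141475846-141475965 for PCDHGC3.
PCDHA4: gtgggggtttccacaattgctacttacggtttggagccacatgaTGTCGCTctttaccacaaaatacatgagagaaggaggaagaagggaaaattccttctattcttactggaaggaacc
PCDHAC2: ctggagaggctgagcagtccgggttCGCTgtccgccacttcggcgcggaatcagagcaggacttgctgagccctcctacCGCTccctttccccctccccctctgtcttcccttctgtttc
PCDHB12: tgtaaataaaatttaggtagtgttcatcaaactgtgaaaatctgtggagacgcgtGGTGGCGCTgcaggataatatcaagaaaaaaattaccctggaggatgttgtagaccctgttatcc
PCDHB2: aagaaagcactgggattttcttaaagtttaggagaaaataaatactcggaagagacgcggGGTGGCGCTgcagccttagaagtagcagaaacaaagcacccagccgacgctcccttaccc
PCDHGA10: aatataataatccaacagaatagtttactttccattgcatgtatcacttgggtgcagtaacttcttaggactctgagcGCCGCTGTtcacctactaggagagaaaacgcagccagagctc
PCDHGB6: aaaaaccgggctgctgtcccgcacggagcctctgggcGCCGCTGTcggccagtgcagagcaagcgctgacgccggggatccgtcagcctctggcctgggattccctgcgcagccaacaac
PCDHGC3: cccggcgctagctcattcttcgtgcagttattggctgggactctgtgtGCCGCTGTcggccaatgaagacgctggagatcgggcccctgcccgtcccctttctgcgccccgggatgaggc

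The marked word began 76 bases before the start in PCDHA4, 65 in PCDHB12, 60 in PCDHB2, 42 in PCDHGA10, 83 in PCDHGB6 and 72 in PCDHGC3. PCDHAC2 held CGCT only, beginning 95 and 41 bases before its start. These starts are those of RefSeq, and GENCODE differs for some genes. GENCODE starts PCDHA4 at 140806929 and PCDHAC2 at 140966235, so by that annotation their windows lie within the gene. PCDHB2, PCDHB12 and PCDHGC3 start within their windows by GENCODE. The core CGCT stood on either strand in 7 of the 7 promoters, but also in 70.0% of all 35116 RefSeq promoters of 300 bases, 250 before and 50 after the start. The 3 longer words, each of which contains CGCT, were chosen with the 47 clustered protocadherin promoters of RefSeq in view, GGTGGCGCT and GCCGCTGT from their most frequent words of 8 bases, so their frequency there is a description. GGTGGCGCT stood in 13 of these 47 promoters and in 0.501% of all promoters, GCCGCTGT in 11 and in 1.63%, and TGTCGCT in 14 and in 1.76%. At least 1 of them stood in 37 of the 47 (78.7%), in 6 of the 7 genes of the table and in 3.82% of all promoters. A match describes the letters of the window and not a bound factor. RefSeq promoters were matched for 21 of the 30 genes, and those of CDH13, CDH6, CDH16, CDH17, CDH24, ITGA3, ITGB2, ITGB3 and PCDH10 were not analysed here.

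TPC1 cells held a few integrin genes at very high levels and most cadherins and protocadherins at low ones, and the larger differences between the groups lay among the low genes. Of the 30 genes 24 reached 1 FPKM in at least 1 group, and 25 had a mean of at least 0.5 FPKM, namely 12 integrins, 7 cadherins and 6 protocadherins. Of these 25, 16 were higher and 9 lower in TPC1-INAVA, with a median difference of 0.13 on the log2 scale. Over all 12305 genes at this level 50.8% were higher, the median difference was 0.0033 and the quartiles were -0.12 and 0.13. Only 4 of the 25 lay within these quartiles. The median difference of the 25 without regard to sign was 0.24 against 0.12 over all genes. This comparison was not matched for level, and larger differences were more frequent among low genes of the table in general.

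**Figure D1:**
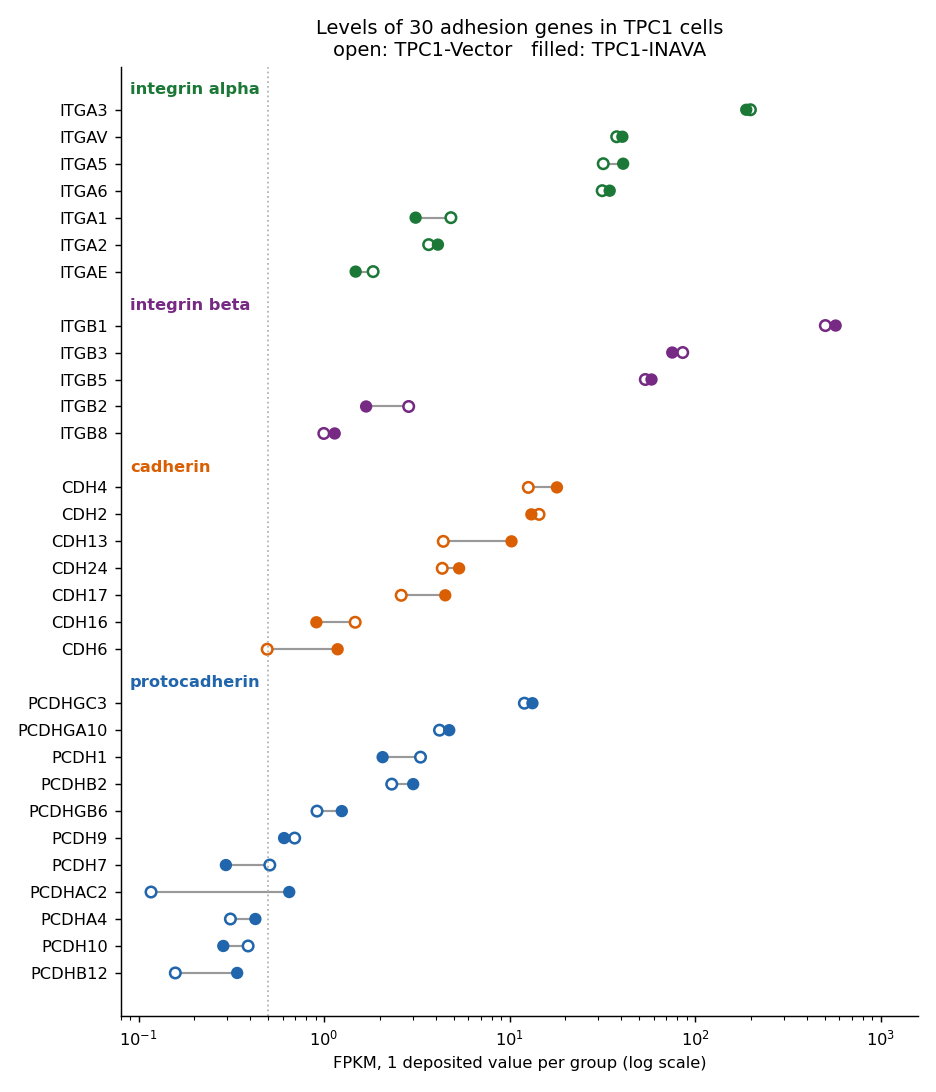
FPKM of the 30 genes (log axis) in TPC1-Vector (open circles) and TPC1-INAVA (filled circles), 1 value per group, ordered within each family by mean level, with a dotted line at 0.5 FPKM. ITGB1 and ITGA3 lie far to the right with circles that nearly touch, and the longest bars join the circles of CDH13, CDH6 and PCDHAC2.

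Of the 25 genes, 3 were called higher in TPC1-INAVA, where 2.24% of all 12305 genes were, and 1 was called lower, where 1.45% were. The higher genes were the cadherins CDH13, CDH6 and CDH17, and the lower gene was the integrin ITGB2. The highest mean among them was 7.32 FPKM, of CDH13, and calls were more frequent among low genes of the table in general. At a mean of 0.5 to 1 FPKM 6% of all genes were called higher and 3.06% lower, and at 1 to 5 FPKM 3.95% and 2.29%. At 5 to 50 FPKM the shares were 1.3% and 1.1%, and at 50 FPKM or more they were 1.27% and 0.692%. CDH6 lay in the lowest of these bands, CDH17 and ITGB2 in the next, and CDH13 in the band of 5 to 50 FPKM. By the plain ratio of the FPKM values, with no filter, 5 of the 30 genes were at least 1.5-fold higher and 5 at least 1.5-fold lower, against 4.76% and 3.76% of all 13165 genes.

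**Figure D2:**
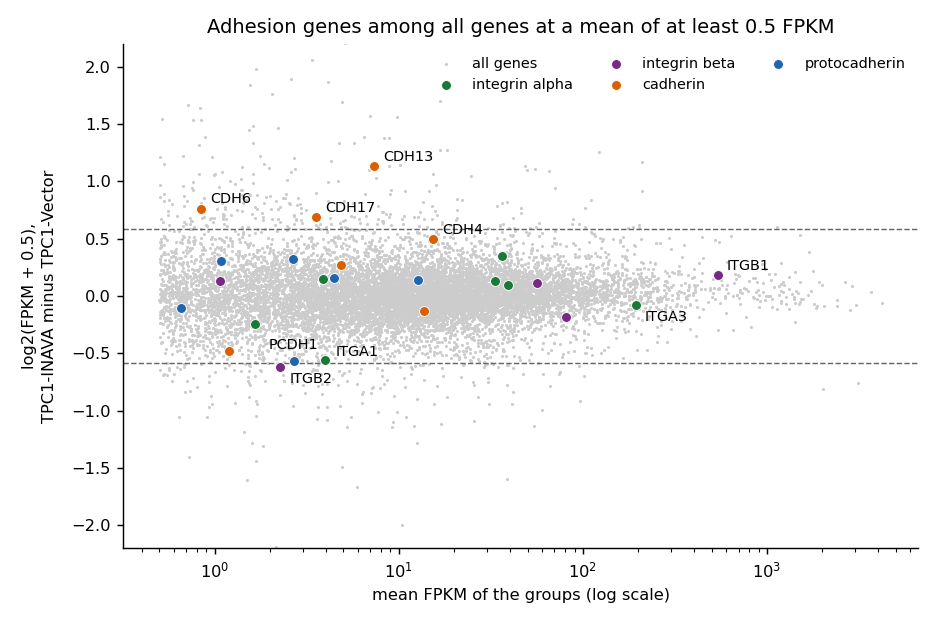
Difference on the log2(FPKM + 0.5) scale (y axis, TPC1-INAVA minus TPC1-Vector) against mean FPKM (x axis, log scale) for all genes with a mean of 0.5 FPKM or more (grey) and the adhesion genes (coloured by family), with dashed lines at 1.5-fold and 12 genes beyond the y range. CDH13, CDH6 and CDH17 lie above the upper line and ITGB2 below the lower line, while ITGB1 and ITGA3, far to the right, lie near 0.

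Among the integrin alpha subunits, the laminin receptor subunit ITGA3 dominated. It was at 199 FPKM in TPC1-Vector against 189 FPKM in TPC1-INAVA, a log2 difference of -0.07. It took 64.0% of the summed FPKM of the 7 alpha subunits in TPC1-Vector and 60.2% in TPC1-INAVA, and it held the highest rank in both. The other laminin receptor subunit, ITGA6, was at 31.6 and 34.7 FPKM. ITGAV, which pairs with several beta subunits to bind vitronectin and other ligands with an RGD motif, was at 37.8 and 40.6 FPKM. ITGA5, the alpha subunit of the classical fibronectin receptor, was at 32.0 FPKM in TPC1-Vector against 41.0 FPKM in TPC1-INAVA, a difference of 0.35. Its ratio to ITGAV was 0.846 in TPC1-Vector and 1.01 in TPC1-INAVA, so ITGA5 was the lower of these subunits in TPC1-Vector and about level with ITGAV in TPC1-INAVA. ITGA5 is listed at the position of ZNF385A, whose own level was 3.13 and 2.80 FPKM.

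The collagen receptor subunits stood at lower levels and differed in opposite directions. ITGA1 was at 4.83 FPKM in TPC1-Vector against 3.12 FPKM in TPC1-INAVA, 0.645 times the vector level and a log2 difference of -0.56 that came short of a call. ITGA2 was at 3.66 and 4.11 FPKM. ITGA1 was thus 1.32 times ITGA2 in TPC1-Vector and 0.758 times ITGA2 in TPC1-INAVA. ITGA1 is listed at the position of PELO, a gene within its first intron, which was at 25.6 and 26.5 FPKM, several times the level of ITGA1 in both groups. ITGAE, which as part of a leukocyte integrin binds E-cadherin, was at 1.84 and 1.48 FPKM and is listed at the position of GSG2, which was at 9.45 and 8.25 FPKM.

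The beta subunits were led by ITGB1, the common partner of ITGA1, ITGA2, ITGA3, ITGA5 and ITGA6. ITGB1 was at 504 FPKM in TPC1-Vector against 573 FPKM in TPC1-INAVA, the 117th and the 110th highest gene of the table. It took 77.8% of the summed beta subunit FPKM in TPC1-Vector and 80.8% in TPC1-INAVA. Set against the sum of its 6 possible alpha partners in the table, these 5 and ITGAV, which was 309 and 312 FPKM, ITGB1 was 1.63 times as high in TPC1-Vector and 1.83 times in TPC1-INAVA. ITGB3, a partner of ITGAV and best known from platelets, was at 85.8 and 75.3 FPKM, a difference of -0.19. ITGB5, another partner of ITGAV, was at 53.9 and 58.2 FPKM. The ratio of ITGB3 to ITGB5 was 1.59 in TPC1-Vector and 1.29 in TPC1-INAVA. ITGB8, whose dimer with ITGAV activates latent TGF-beta, was close to 1 FPKM in both groups (0.997 and 1.14).

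ITGB2, the beta subunit of the leukocyte integrins, was the only integrin called. It was at 2.86 FPKM in TPC1-Vector against 1.69 FPKM in TPC1-INAVA, 0.590 times the vector level and a log2 difference of -0.62. With a pseudocount of 1 in place of 0.5 the difference was -0.52 and the call was lost, and with one of 0.1 ITGA1 was past the limit too (-0.62). Its position, chr21:44885954-44929680, is also that of its antisense gene ITGB2-AS1, which was at 1.01 and 0.973 FPKM. Whether reads were assigned by strand is not given in the sources used here, so the reads of these genes may be mixed. The leukocyte markers PTPRC and CD3E were not analysed here, CD14 was at 0.295 and 0.236 FPKM, CD68 at 5.76 and 8.67 FPKM and LCP1 at 0.255 and 1.38 FPKM. CD68 and LCP1 were thus higher where ITGB2 was lower, whereas CD14, at a level under the filter, was lower as ITGB2 was. A relation between these markers and the difference of ITGB2 was not tested. Over the 12 integrins 7 were higher and 5 lower, with a median of 0.11, and the 7 at a mean of 30 FPKM or more differed by -0.19 to 0.35.

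**Figure D3:**
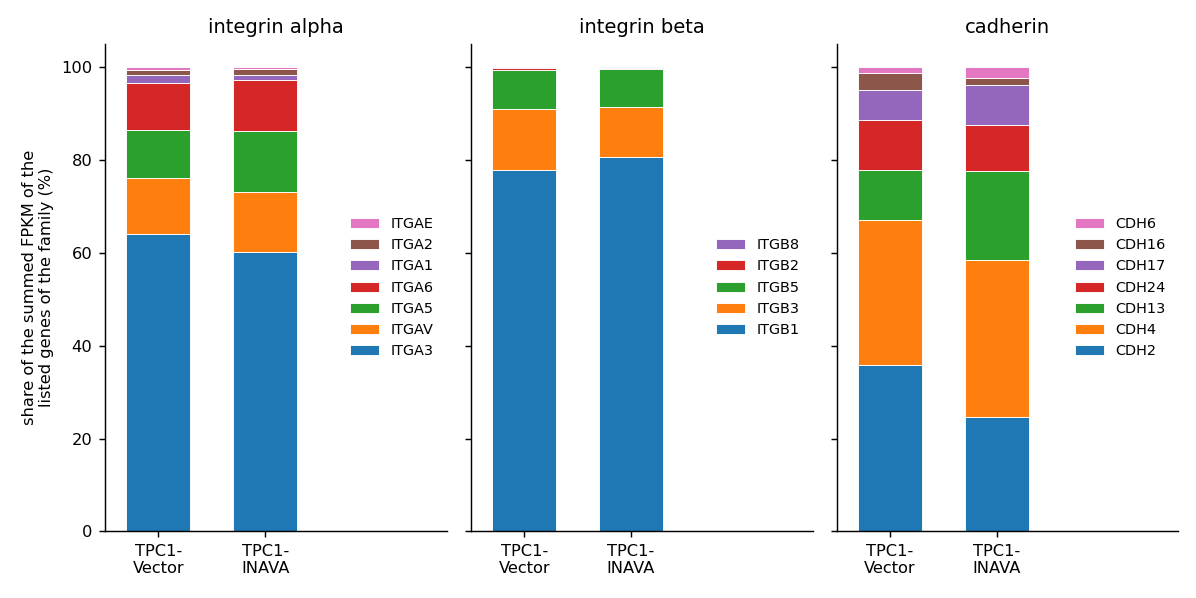
Share of each gene in the summed FPKM of the listed genes of its family (y axis, %), in TPC1-Vector and TPC1-INAVA, 1 value per group. ITGA3 and ITGB1 take most of their family in both groups, whereas among cadherins CDH2 gives the largest share in TPC1-Vector and CDH4 in TPC1-INAVA. The order of CDH2 and CDH4 is uncertain, since CDH4 is listed on a short stretch of an alternate scaffold.

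The 3 genes called higher were all cadherins. Of the 7 genes 5 were higher in TPC1-INAVA and 2 lower, with a median of 0.50, which is the value of CDH4 and was 0.31 when each gene was taken relative to its neighbours on the chromosome. Their summed level was 40.3 FPKM in TPC1-Vector against 53.3 FPKM in TPC1-INAVA. CDH13 (T-cadherin, chr16:82626794-83796610), which is held to the membrane by a lipid anchor and has no cytoplasmic tail to bind catenins, was at 4.39 FPKM in TPC1-Vector against 10.2 FPKM in TPC1-INAVA. This was 2.33-fold, a log2 difference of 1.14, and it was the largest difference among the 25 genes. The share of CDH13 in the cadherin sum was 10.9% and 19.2%.

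CDH6 (K-cadherin, chr5:31193655-31329146), a type II cadherin of the developing kidney, was at 0.494 FPKM in TPC1-Vector against 1.18 FPKM in TPC1-INAVA. The plain ratio was 2.40 and the log2 difference 0.76, the gap between these measures being due to the pseudocount at so low a level. CDH17 (liver-intestine cadherin, chr8:94127166-94217303), a cadherin of the gut epithelium with a very short cytoplasmic tail, was at 2.61 and 4.50 FPKM. Its ratio was 1.73 and its log2 difference 0.69. CDH13, CDH6 and CDH17 share their position in the table with no other gene.

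The other cadherins did not reach a call. CDH2 (N-cadherin), commonly used as a mesenchymal marker, was at 14.4 FPKM in TPC1-Vector against 13.1 FPKM in TPC1-INAVA, a difference of -0.13. CDH4 (R-cadherin) was at 12.6 and 18.002 FPKM, a difference of 0.50. By these values CDH2 was the highest cadherin in TPC1-Vector, with 35.7% of the sum, and CDH4 the highest in TPC1-INAVA, with 33.8%. CDH4 is listed at bases 8603 to 54269 of an alternate scaffold, whereas GENCODE gives it chr20:61252426-61940617. Its level may thus cover only a part of the gene, and its order beside CDH2 is uncertain. The ratio of CDH4 to CDH2 was 0.875 and 1.37, and that of CDH13 to CDH2 was 0.305 and 0.782. CDH24, a type II cadherin, was at 4.34 and 5.35 FPKM. CDH16 (kidney-specific cadherin), also known from the thyroid follicle, was at 1.47 and 0.910 FPKM, 0.618 times the vector level and a log2 difference of -0.48.

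Since long stretches of some chromosomes differed between these groups as a whole, each gene was set beside the other genes within 5 Mb of it at a mean of at least 1 FPKM. The median difference of these neighbours was under 0.1 in either direction for all of the 29 genes that had a value, except CDH4. The 62 neighbours of CDH4 on chromosome 20 had a median of 0.37, which left 0.12 of the 0.50 of CDH4 itself. The table lists CDH4 on an alternate scaffold of chromosome 20, so its place there was taken from GENCODE. The neighbours of CDH13 had a median of 0.07 (44 genes), those of CDH17 0.04 (41 genes), those of CDH6 -0.01 (16 genes) and those of ITGB2 0.01 (41 genes). PCDH9 had no neighbours that could be used.

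**Figure D4:**
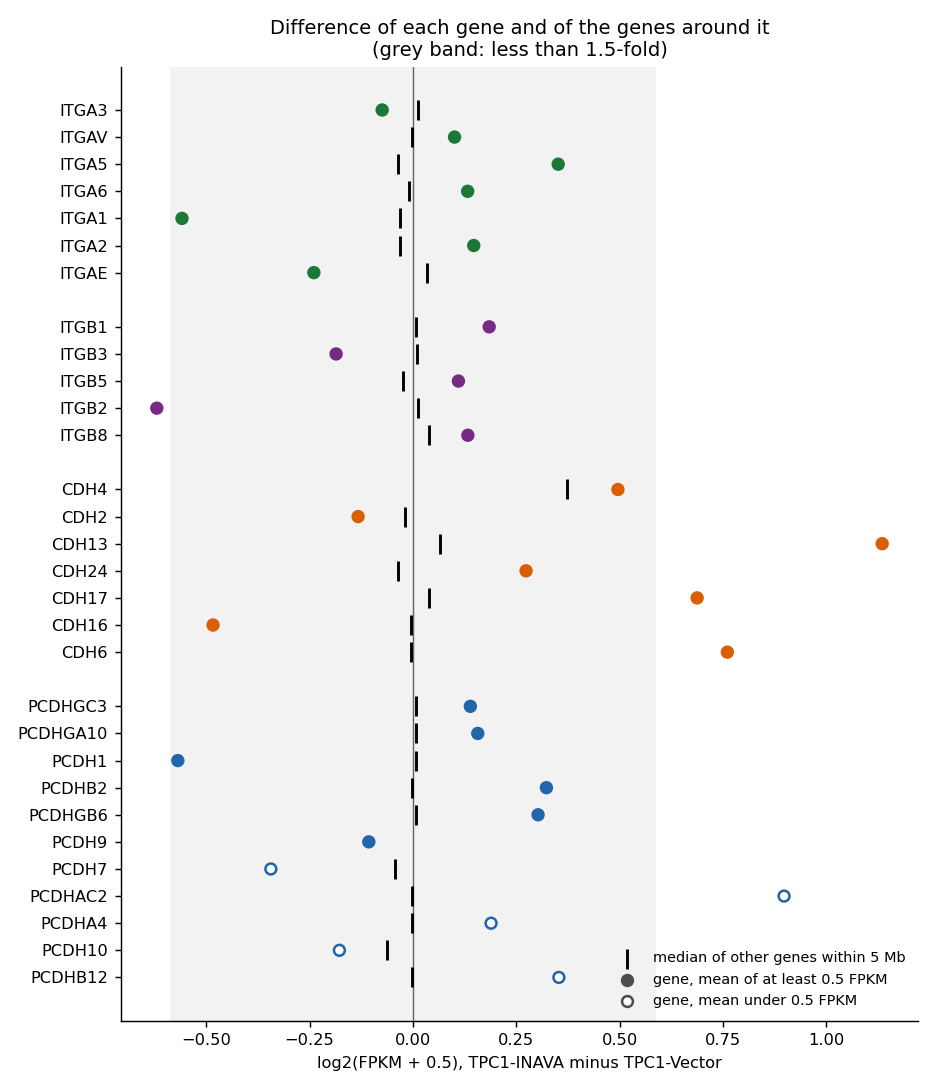
Difference of each gene on the log2(FPKM + 0.5) scale (circles, open where the mean was under 0.5 FPKM) and the median difference of the other genes within 5 Mb (black ticks), with a grey band for less than 1.5-fold. The ticks lie near 0 for all genes shown with one except CDH4, whose neighbours had a median of 0.37.

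Among the protocadherins the clustered genes and the others lay on opposite sides. All 7 clustered genes were higher in TPC1-INAVA, with a median of 0.30, and all 4 non-clustered genes were lower, with a median of -0.26. Only 4 and 2 of these had a mean of at least 0.5 FPKM, with medians of 0.23 and -0.34, and none of these 6 reached a call. Genes within the alpha and within the gamma cluster share coding exons, so the 7 clustered genes are not independent. The summed level of the clustered genes was 20.03 FPKM in TPC1-Vector against 23.7 FPKM in TPC1-INAVA, and that of the non-clustered genes 4.91 and 3.26 FPKM.

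In the gamma cluster, PCDHGC3 made up 48.2% of the protocadherin sum in TPC1-Vector and 49.3% in TPC1-INAVA, at 12.0 and 13.3 FPKM. It belongs to the C-type genes, which lie at the end of the cluster. PCDHGA10 was at 4.19 and 4.73 FPKM, and PCDHGB6 at 0.916 and 1.25 FPKM, a difference of 0.30. These 3 genes are listed at 1 position, chr5:141330685-141512981, and share 3 of their 4 coding exons, 372 bases that make up 13.2% to 13.3% of each coding sequence. How fragments of the shared exons were divided among them is not given in the sources used here, so the split between them is uncertain and the genes are not independent.

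In the beta cluster each gene has a single coding exon, and no exon is shared. PCDHB2, at chr5:141094607-141097381, was at 2.32 FPKM in TPC1-Vector against 3.02 FPKM in TPC1-INAVA, a difference of 0.32. PCDHB12, at chr5:141208719-141212126, was at 0.158 and 0.340 FPKM, a plain ratio of 2.15 at a level too low for a call. Their coding exons have 2394 and 2385 bases. In the windows printed above, both carry the word GGTGGCGCT, and they are the only 2 of the 7 that do.

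In the alpha cluster, PCDHA4 and PCDHAC2 are listed at 1 position, chr5:140786136-141012344, and share 3 of 4 coding exons. The 456 shared bases are 16.1% of the coding sequence of PCDHA4 and 15.1% of that of PCDHAC2. PCDHAC2, a C-type gene and the one with CGCT alone in its promoter window, was at 0.117 FPKM in TPC1-Vector against 0.649 FPKM in TPC1-INAVA. This was the largest plain ratio of the 30 genes, 5.56, although the mean was under the filter. PCDHA4 was at 0.313 and 0.427 FPKM, so the ratio of PCDHAC2 to PCDHA4 was 0.373 in TPC1-Vector and 1.52 in TPC1-INAVA. Both lay among the lowest genes of the table, and their common exons make the order between them uncertain.

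Of the non-clustered protocadherins, PCDH1, which is known from airway epithelium, was the highest. PCDH1 (chr5:141853111-141878410) was at 3.31 FPKM in TPC1-Vector against 2.07 FPKM in TPC1-INAVA, 0.625 times the vector level and a log2 difference of -0.57. It lies on the same chromosome arm as the clusters, beyond the gamma cluster and on the other strand, and differed in the opposite direction. PCDH7 was at 0.510 and 0.296 FPKM, 0.580 times the vector level. PCDH9 and PCDH10, which stayed under 1 FPKM in both groups and were not past 1.5-fold, were 0.877 and 0.735 times the vector level.

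The genes that work with these receptors were described from lists of their known partners. The list of 41 integrin adaptors holds proteins that link integrin tails to actin and to signalling, and also membrane proteins such as CAV1 and CD151. Of the 41, 35 had a mean of at least 0.5 FPKM. Of these 22 were higher and 13 lower, with a median of 0.06. None was called in either direction, which is near the low shares of all genes, 2.24% called higher and 1.45% lower. The highest were FLNA, which crosslinks actin, at 452 FPKM in TPC1-Vector against 471 FPKM in TPC1-INAVA, CAV1 of the caveolae at 329 and 269 FPKM, and the tetraspanin CD151, which binds laminin-binding integrins, at 186 and 228 FPKM. Of 34 integrin ligands 22 had such a level, 12 higher and 10 lower, with a median of 0.04, and 3 were called higher and 1 lower, where 2.24% and 1.45% of all genes were.

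The called ligands include known partners of integrins that these cells expressed at high levels. FN1 (fibronectin), which ITGA5 and ITGB1 bind as a pair, was at 144 FPKM in TPC1-Vector against 272 FPKM in TPC1-INAVA, a log2 difference of 0.92. TNC (tenascin C) was at 8.02 and 13.3 FPKM and MFGE8, which binds ITGAV dimers by its RGD motif, at 15.8 and 25.6 FPKM. SPP1 (osteopontin), another ligand of ITGAV dimers, was at 126 and 77.3 FPKM, a difference of -0.70. The highest ligand genes beside FN1 were THBS1 (thrombospondin 1), at 372 and 364 FPKM, and CYR61, at 221 and 261 FPKM.

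The cytoplasmic partners of cadherins showed no common direction. Of 17 genes 14 had a level, 6 higher and 8 lower, with a median of -0.04. CTNNB1 (beta-catenin) was at 146 FPKM in TPC1-Vector against 159 FPKM in TPC1-INAVA, CTNNA1 (alpha-catenin) at 129 and 138 FPKM, and CTNNAL1, a relative of alpha-catenin, at 274 and 228 FPKM. LIMA1, an actin-binding protein that is linked to alpha-catenin, was the only one called, at 24.2 and 36.8 FPKM, where 1.3% of all genes at 5 to 50 FPKM were called higher. Of the other members of the cadherin superfamily (desmosomal cadherins, FAT, CELSR and calsyntenin genes) 9 of 24 had a level, 3 higher and 6 lower, with a median of -0.12. FAT4, a giant cadherin that acts with DCHS1 in planar polarity, was the only one called, at 5.92 and 3.58 FPKM, where 2.29% of all genes at 1 to 5 FPKM were called lower. The highest were CLSTN1, at 56.3 and 48.7 FPKM, DSG2 of the desmosome, at 38.8 and 40.6 FPKM, and FAT1, at 37.7 and 34.7 FPKM.

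The factors known to act on clustered protocadherin promoters, CTCF, cohesin and its regulators and the silencing factors SMCHD1, DNMT3B and SETDB1, had a median of -0.15. In TPC1-INAVA 2 of the 11 were higher and 9 lower, where 50.8% of all genes were higher. None was called in either direction, where 2.24% of all genes were called higher and 1.45% lower. At shares this low, the lack of a call among 11 genes says little about them. The 7 clustered protocadherins were all higher, but only 4 of them had a mean of at least 0.5 FPKM, and some share exons. A link between these factors and the clustered genes was not tested. RAD21, a cohesin subunit, was at 193 FPKM in TPC1-Vector against 173 FPKM in TPC1-INAVA, and SMC1A at 33.6 and 35.4 FPKM. SMC3 was at 53.2 and 36.7 FPKM, a log2 difference of -0.53. SMC3 and the cohesin release factor WAPL, at 32.7 and 24.2 FPKM, lie on chromosome 10, where the median difference of their neighbours was -0.36 and -0.34. That of the 61 neighbours of the adaptor gene VCL (vinculin), at 121 and 85.5 FPKM, on the same chromosome was -0.31.

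**Figure D5:**
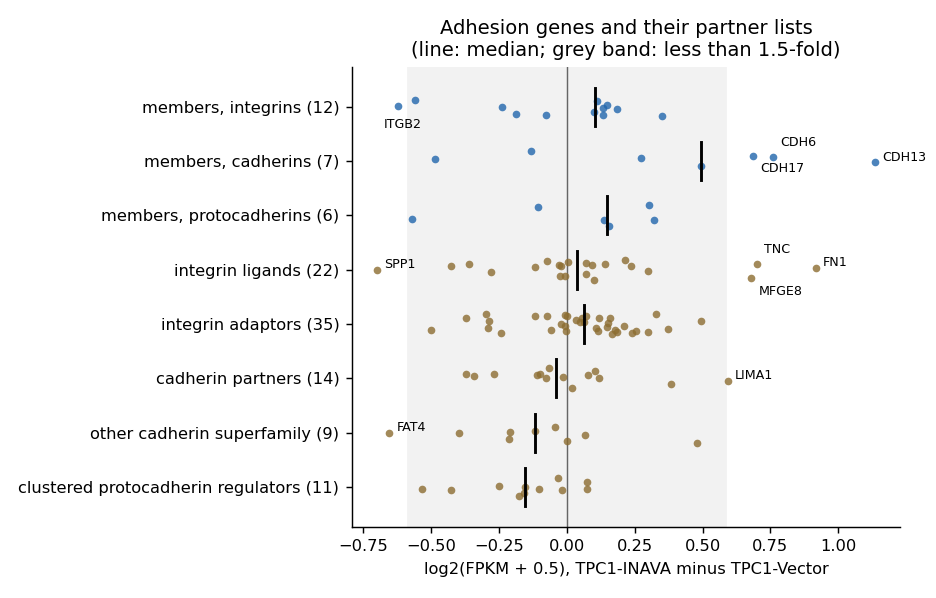
Difference on the log2(FPKM + 0.5) scale (x axis, TPC1-INAVA minus TPC1-Vector) of each gene with a mean of 0.5 FPKM or more (points, their number in parentheses) in the 3 families and 5 lists of partner genes, with the median of each as a black line and a grey band for less than 1.5-fold. The cadherin median, at 0.50 (0.31 relative to neighbouring genes), lies farthest from 0, and the named points outside the band are the called genes.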

How the data were processed

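RNA-seq of TPC1-Vector and TPC1-INAVA cells, 2 libraries per group, was used. The values deposited by the authors are FPKM on hg38, with 1 value for each group. CASAVA, Cufflinks 2.1.1 and Cuffdiff are named in the submitters' processing notes, and the aligner, the annotation and the strand setting are not given in the sources used here. The deposited table also holds the authors' own comparison (a log2 ratio, its direction, a p-value and a q-value), which was not used. The labels and the study's methods name different library kits.

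Differences were computed as log2(FPKM + 0.5) in TPC1-INAVA minus TPC1-Vector, for genes whose mean of the groups was 0.5 FPKM or more, with Python 3.11.15, numpy 2.4.6, pandas 2.3.3 and matplotlib 3.10.9, by code that was tested on simulated data. The planned test, limma on values per library, needs more than the 1 value that each group has and was not run, so a call is a 1.5-fold difference. Members and partner lists were chosen with earlier results of these data known. Members at 1 FPKM or more in either group, or past 1.5-fold, were named with values, and so were, of each partner list, the called genes and the 3 of highest mean level. PCDHA4, PCDH9, PCDH10, CD68, CD14, LCP1, VCL and WAPL were named after their values were seen. Some genes of the lists are not reported here. Positions were those of the table, with GENCODE release 29 for CDH4. A position was shared with another gene by 2612 genes, among them 9 of the 30 members. Promoters came from RefSeq (GRCh38.p14).

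Alternatives were pseudocounts of 0.1 and 1, no pseudocount, no filter, a filter at a mean of 1 FPKM, a 2-fold call, median-of-ratios scaling, quantile normalization, leaving out genes of shared position, and differences relative to the neighbours.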

Additional observations from a re-analysis of the deposited data

How the results depend on the processing

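No paired analysis was possible because the table has 1 value per group, and for the same reason limma with a replicate block and fits without each replicate in turn were not run. Depth per library is unknown, so counting error limits the values under about 1 FPKM by an unknown amount. The ratio without pseudocount was chosen after seeing the data. None of the 25 members at a mean of at least 0.5 FPKM changed direction under another pseudocount or scaling, and 20 of them kept their side of the 1.5-fold limit.

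The count of members lower past 1.5-fold was 1, and it was 4 with a pseudocount of 0.1 or none, 2 after quantile normalization, and 0 with a pseudocount of 1, with a 2-fold call, and without members of shared position, which leaves out ITGB2. CDH16 (-0.64 and -0.69), ITGA1 (-0.62 and -0.63) and PCDH1 (-0.65 and -0.68) were past the limit with a pseudocount of 0.1 and with none, and PCDH1 also after quantile normalization (-0.59). With a pseudocount of 1, ITGB2 (-0.52) and CDH6 (0.55) were under it. A larger pseudocount shrinks the difference of low genes by construction. The count of members higher, 3, was 1 with a 2-fold call, CDH13. The cadherin median of 0.50 was 0.38 at a mean of at least 1 FPKM, where fewer genes are left, and 0.31 relative to the neighbours, where CDH4 falls to 0.12. The other family and list medians moved by less than 0.1, and scaling moved the median of all genes by less than 0.1.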
